A study of Mus musculus with 2 samples.

Results

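The aryl hydrocarbon receptor (AhR) pathway is described here through 7 genes chosen by name out of 23284 gene symbols: the receptor Ahr, its partner Arnt, its repressor Ahrr, and the target genes Tiparp, Cyp1a1, Cyp1b1 and Nqo1. RNA-seq was performed on LSK CD48- cells of the E14.5 fetal liver (FL), that is, cells without lineage markers or CD48 but with Sca-1 and c-Kit, among which hematopoietic stem cells (HSCs) are enriched. There was 1 library from WT fetuses and 1 from ESAM-null fetuses, which carry a conventional homozygous deletion of the endothelial cell-selective adhesion molecule gene and therefore lack it in endothelium as well as in blood cells. Neither the number of fetuses pooled per library nor their sex is given in the sources used here. The sample labels speak of sorted cells incubated in methylcellulose, whereas the study describes sorted FL cells, and the values were read as those of sorted cells. The comparison asked which genes differed between WT and ESAM-null HSCs.

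AhR is a ligand-activated transcription factor of the basic helix-loop-helix PAS (bHLH-PAS) family that waits in the cytosol in a complex with the chaperone HSP90. When it binds a ligand, such as a dioxin or a breakdown product of tryptophan, it moves into the nucleus, pairs with ARNT and binds the dioxin response element in front of genes of xenobiotic metabolism. In HSCs the receptor is known for limiting expansion, since its antagonist StemRegenin is used to expand human HSCs in culture. Among its targets, AHRR competes with AhR for ARNT and TIPARP marks AhR for loss, so both feed back on the receptor.

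Values are FPKM, which are scaled both to exon length and to the fragments of the library, so levels of different genes can be set side by side. Most low FPKM values lay near steps of whole reads, which put the reads behind the values at about 9604795 for WT and 11740412 for ESAM-null. The 95% intervals given below come from these approximate reads and cover counting error only. Since WT and ESAM-null each have 1 library, differences between them lack a replicate check, and no test between genotypes can be made. Esam itself was 117.6 FPKM in WT against 12.1 FPKM in ESAM-null, and gene-level values do not tell the exons of the remaining reads. The sorted fraction carried its defining transcripts in WT and ESAM-null, with Kit at 94.4 and 76.4 FPKM and Ly6a, which encodes Sca-1, at 99.8 and 96.7 FPKM. Procr, a stem cell marker not used in the sort, was 120.1 and 143 FPKM. Cd48, against which the cells were sorted, was listed at 16.6 and 22.0 FPKM.

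Of the 7 genes, 4 were detected in both libraries and 3 were listed at 0 in both. Ahr was lower in ESAM-null and Nqo1 was higher, each by more than 2-fold, whereas Arnt and Tiparp lay within 2-fold. Thus 1 of the 4 detected genes was at least 2-fold lower, against 12.8% of the 12066 genes with at least 1 FPKM in 1 library, and 1 of 4 was at least 2-fold higher, against 7.42%. Counts of 1 among 4 genes are too few to be set apart from those shares. At 1.5-fold, 2 of 4 were lower, against 21.8% of all genes, and 1 was higher, against 17.4%. At 3-fold as deposited, 0 were lower, against 7.27%, and 1 was higher, against 4.06%. After upper quartile scaling, Ahr was at a log2 ratio of -1.68, past 3-fold, and Nqo1 at 1.46, within 3-fold. The calls on all genes depend on scaling: 63.2% of those past 2-fold were lower as deposited, and 78.1% once both totals were set to 1000000 FPKM, a shift of -0.28 in all log2 ratios. Ahr and Nqo1 were past 2-fold in the same directions after that rescaling.

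**Figure D1:**
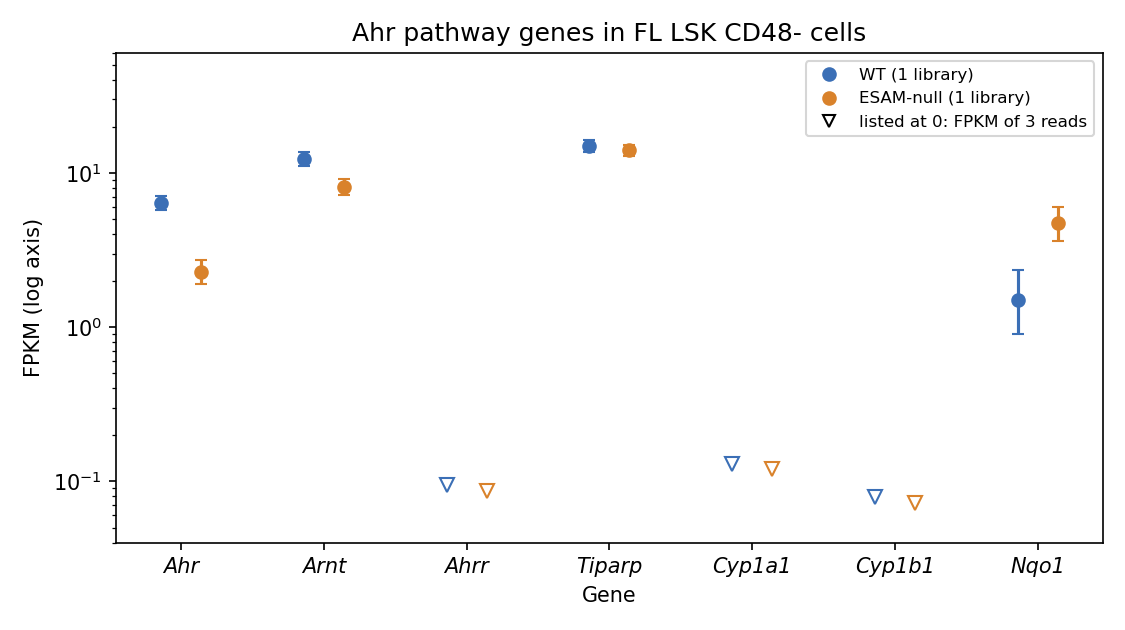
FPKM of the 7 AhR pathway genes (log axis) in the WT library (blue) and the ESAM-null library (orange). Bars are 95% counting intervals, and open triangles mark genes listed at 0, drawn at the FPKM that 3 reads would give. Ahr and Nqo1 change places between the libraries: Ahr is at 6.40 and 2.29 FPKM and Nqo1 at 1.498 and 4.71 FPKM.

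Ahr, the receptor (chromosome 12 of mm10, 35497974 to 35535038, minus strand, in GENCODE), was 6.40 FPKM in WT against 2.29 FPKM in ESAM-null. About 321 and 125 reads stand behind these values, and their counting intervals of 5.71 to 7.13 and 1.90 to 2.72 FPKM do not overlap. Ahr was thus 2.80-fold lower in ESAM-null (95% counting interval 2.27 to 3.46). Genes of such low level scatter widely between these libraries: of genes with a mean between 3 and 10 FPKM, 16.5% were at least 2-fold lower, and 6.97% had a lower ratio than Ahr. The study names Ahr among genes it picked from these same libraries, so its direction here is not independent evidence.

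Arnt, the partner that AhR needs to bind DNA (chromosome 3, 95434388 to 95497240), was 12.4 FPKM in WT against 8.15 FPKM in ESAM-null, with roughly 385 and 276 reads. It was lower in ESAM-null by 1.52-fold (1.30 to 1.78), which is less than 2-fold. Between 10 and 30 FPKM, the range that holds Arnt and Tiparp, 5.3% of genes were at least 2-fold lower and 2.84% at least 2-fold higher, and 16.05% had a lower ratio than Arnt. The difference was smaller than that of Ahr, and the level of Arnt relative to Ahr was 1.94 in WT and 3.57 in ESAM-null. The partner transcript therefore stood above the receptor transcript in both libraries, by a wider margin in ESAM-null.

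Tiparp, a mono-ADP-ribosyltransferase induced by AhR (chromosome 3, 65528410 to 65555518), was the most abundant of the 7 genes in each library. It was 15.0 FPKM in WT against 14.05 FPKM in ESAM-null, from about 561 and 573 reads. These levels were 1.06-fold apart with a counting interval of the ESAM-null to WT ratio from 0.834 to 1.06, which includes equal levels. This depends on the scaling, since the log2 ratio was -0.28 (-0.45 to -0.11) after upper quartile scaling and -0.37 (-0.54 to -0.20) with totals of 1000000 FPKM, and these intervals lie below equal levels. Its level relative to Ahr was 2.34 in WT and 6.15 in ESAM-null.

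Nqo1, a quinone reductase that detoxifies quinones (chromosome 8, 107388225 to 107403206, minus strand), was 1.498 FPKM in WT against 4.71 FPKM in ESAM-null. The WT value rests on about 19 reads and the ESAM-null value on about 65. Nqo1 was 3.15-fold higher in ESAM-null, with a wide counting interval of 1.86 to 5.55 that reaches below 2-fold. Of genes with a mean between 3 and 10 FPKM, 7.66% were at least 2-fold higher, and 97.4% had a lower ratio than Nqo1. The mean of Nqo1 lies near the lower edge of this range, and between 1 and 3 FPKM 19.7% were at least 2-fold higher. Some transcripts typical of other cells also differed in this direction. The endothelial ones are not exclusive to endothelium, since the study counts VE-cadherin and PECAM-1 among antigens found on developing HSCs. Of 8 endothelial markers, 5 reached 1 FPKM and 1 of these was at least 2-fold higher. Cdh5, which encodes VE-cadherin, was 0.954 FPKM in WT against 3.33 FPKM in ESAM-null, but Pecam1 was 20.8 and 12.1 FPKM and Lyve1 was listed at 0 in ESAM-null. The summed level of the 8 markers was 79.1 FPKM in WT against 93.0 FPKM in ESAM-null. Most of each sum was Emcn, at 43.2 and 59.96 FPKM, and the higher sum in ESAM-null rested on it. Of 8 hepatocyte markers, 5 reached 1 FPKM, with 1 lower and 1 higher. Apoa1 was 1.09 and 7.52 FPKM and Afp was 4.35 and 6.69 FPKM, while Hnf4a was 3.81 and 2.32 FPKM. Alb, with 1.04 FPKM in the WT library, and Ttr, Ahsg and Serpina1a, which were lower still there, had no reads in ESAM-null. The sums were 43.8 and 39.4 FPKM, and most of each was Trf, at 32.5 and 22.8 FPKM. The lower sum in ESAM-null therefore rested on Trf. Of 6 mast cell markers, 2 reached 1 FPKM and 1 of these was higher. Cpa3 was 1.11 and 3.83 FPKM, Hdc was 1.86 and 1.80 FPKM, and Mcpt4 and Fcer1a were listed at 0 in both libraries. The sums were 2.96 and 5.97 FPKM, and the higher sum in ESAM-null rested mostly on Cpa3. The part of these cells in the Nqo1 value was not tested, and in bulk RNA fewer cells of a type and less RNA per cell cannot be told apart.

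The order of the 4 levels differed between the libraries. In WT it was Tiparp, Arnt, Ahr and Nqo1, and in ESAM-null it was Tiparp, Arnt, Nqo1 and Ahr. Within each library the counting intervals of neighbouring genes in this order did not overlap, the closest pair being Tiparp (13.8 to 16.3 FPKM) and Arnt (11.2 to 13.7 FPKM) in WT. That gap is narrow and rests on the mean length of the 2 Arnt transcripts, since a shorter length would widen the interval of Arnt. Ahr stood 4.27 times above Nqo1 in WT, and in ESAM-null Nqo1 stood 2.06 times above Ahr. None of the 4 was an abundant transcript: 24.5% of all gene symbols had a higher FPKM than Tiparp in WT and 35.0% had a higher FPKM than Ahr. In ESAM-null, 42.8% of gene symbols were above Ahr.

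**Figure D2:**
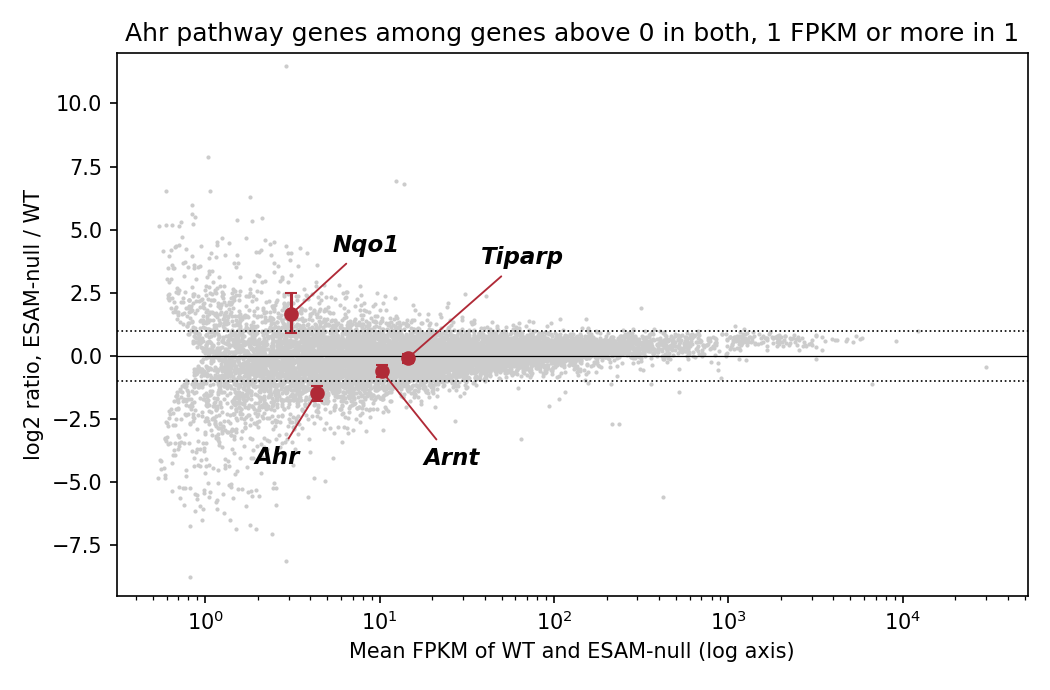
Log2 of the ESAM-null to WT ratio of FPKM against the mean FPKM of both libraries (log axis) for genes above 0 in both and at 1 FPKM or more in 1 (grey), with the 4 detected AhR pathway genes in red and their 95% counting intervals. Dotted lines mark 2-fold. Ahr, at -1.48, lies below the lower line and Nqo1, at 1.65, above the upper one, in a range of 3 to 10 FPKM where 16.5% and 7.66% of genes do. Nqo1 lies near the lower edge of that range, and between 1 and 3 FPKM 19.7% of genes lie above the upper line. Arnt, at -0.60, and Tiparp, at -0.09, lie between the lines.

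The repressor Ahrr (chromosome 13, 74211118 to 74292331) was listed at 0 in WT and in ESAM-null, as were the cytochrome P450 genes Cyp1a1 (chromosome 9, 57687928 to 57703824) and Cyp1b1 (chromosome 17, 79701537 to 79715061). Cyp1a1 is the textbook reporter of AhR activity, and Cyp1b1 encodes a related enzyme that oxidizes steroids and polycyclic hydrocarbons. Taken as a limit of 3 reads, a count of 0 would allow Ahrr 0.0943 FPKM in WT against 0.0867 FPKM in ESAM-null. The same limit is 0.130 and 0.119 FPKM for Cyp1a1, and 0.0786 and 0.0722 FPKM for Cyp1b1. The wider interval used for the other levels reaches 0.116 and 0.107 FPKM for Ahrr. Whether these genes differed between the genotypes was therefore not detectable at this depth. The 2 targets that were read at all, Tiparp and Nqo1, differed from each other and from Ahr in their ratios.

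The dioxin response element has the core GCGTG. The RefSeq promoter windows on GRCm38.p6, each 300 bases from 250 before to 50 after a gene's start, hold an entry for 6 of the 7 genes. The core was searched on both strands of the 6 windows and found in 5, in 7 places, and 32.4% of all 32851 windows hold it. The matches are printed here with 8 bases on each side, to set where the core lies beside the levels of the genes that carry it. Capitals mark the core, which reads CACGC where it lies on the strand opposite to the gene. The Cyp1a1 window belongs to the RefSeq start, which lies inside the longer GENCODE span of the gene. Nqo1 had no match in its window, which says only that these letters are not in it.
Arnt, chr3:95434353-95434373, plus strand, 29 bases before the start: agtttgggGCGTGtcttctgc
Ahrr, chr13:74292426-74292446, minus strand, 107 bases before the start: gaaagggcGCGTGgcaggcag
Ahrr, chr13:74292401-74292421, minus strand, 82 bases before the start: aaggatgtGCGTGcgccctct
Ahrr, chr13:74292346-74292366, minus strand, 27 bases before the start: ggcggctcGCGTGctggggtg
Tiparp, chr3:65528269-65528289, plus strand, 170 bases before the start: gtccggagCACGCgcacggga
Cyp1a1, chr9:57697551-57697571, plus strand, 54 bases before the start: ataaggagGCGTGgccaacag
Cyp1b1, chr17:79715125-79715145, minus strand, 76 bases before the start: ccgcccctCACGCcccacccc

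Ahrr, with 3 matches, was listed at 0 in both libraries, and Tiparp, with 1, was the most abundant of the 7 genes. The longer motif TNGCGTG, every match of which also holds the core, was found in the window of 1 of the 6 genes. This was the Ahrr match nearest to the start, and 5.07% of all windows hold it. A match is a description of the sequence and does not show that AhR binds there.

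Around these 7 genes, 89 genes in 7 lists were examined, of which 62 had at least 1 FPKM in 1 library. Among the 62, 10 passed 2-fold downwards in ESAM-null and 4 upwards. With 1 FPKM required in both libraries the split was 4 to 3 of 55 genes, and with 5 FPKM required in 1 library it was 3 to 2 of 50. Of the 10, 6 were under 1 FPKM in ESAM-null: Ncoa1, Clock, Ptgs2, Kmo, Afmid and Parp11. These passed the filter only through WT, which fixed their direction. The split was 15 to 2 among 63 with totals of 1000000 FPKM, so that 71.4% of the genes past 2-fold were lower as deposited and 88.2% with equal totals. The shares of 16.1% and 6.45% lie near the 12.8% and 7.42% of all genes. The median log2 ratio of list members above 0 in both libraries was -0.12, beside 0.01 over all genes. For the genes past 2-fold that follow, the rank is the share of genes with a lower ratio in the same range of mean FPKM (under 1, 1 to 3, 3 to 10 or 10 to 30).

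The cytosolic complex that holds unliganded AhR, together with factors of its turnover, held the most abundant genes of the lists, and none of its 9 genes was past 2-fold. Its median log2 ratio was 0.21 as deposited and turned to -0.07 with totals of 1000000 FPKM. Hsp90ab1, which encodes a chaperone subunit of the complex, was 844 FPKM in WT against 1113 FPKM in ESAM-null. The other HSP90 gene, Hsp90aa1, was 396 and 587 FPKM, 1.48-fold higher in ESAM-null. Copies of both genes elsewhere in the genome may share reads with them.

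Coregulators that AhR and ARNT recruit were measured for all 11 listed genes. Of these, 3 were lower (27.3%) and none higher, against 12.8% and 7.42% of all genes. The median log2 ratio was -0.38 as deposited, and with totals of 1000000 FPKM it was -0.66 with 4 lower. Ncoa1, a steroid receptor coactivator, was 2.22 FPKM in WT against 0.315 FPKM in ESAM-null, or 7.05-fold lower (4.53 to 11.5), with a rank of 9.80%. Nrip1, a ligand-dependent corepressor, was 28.5 and 13.01 FPKM, 2.19-fold lower (2.01 to 2.39), with a rank of 3.89%. Ncoa3 was 5.86 and 2.81 FPKM, 2.09-fold lower, with a rank of 14.9%. Its relative Ncoa2, at 7.46 and 3.74 FPKM, missed 2-fold narrowly and passed it under each of the 3 other scalings. Ncoa1 passed the filter only through WT, at a level where 538 of 1796 genes were at least 2-fold lower. The most abundant coregulators differed less, with Ncor1 at 57.3 and 44.1 FPKM and Smarca4 at 44.0 and 39.5 FPKM.

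Among bHLH-PAS relatives, which share the dimerization fold of AhR and ARNT, 4 of 13 genes were measured. Clock, a core circadian factor, was 1.59 FPKM in WT against 0.563 FPKM in ESAM-null, or 2.82-fold lower (1.98 to 4.17), with a rank of 21.4%. Hif1a, the hypoxia factor that competes for ARNT, was 18.1 and 16.7 FPKM, and Arntl, the circadian partner of CLOCK, was 13.1 and 14.8 FPKM. Arnt2, the gene most like Arnt, was listed at 0 in both libraries, as were Npas4, Sim1 and Sim2.

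Of 21 further targets of AhR, 9 were measured. Among these, 1 was lower (11.1%) and 2 were higher (22.2%), against 12.8% and 7.42% of all genes. Aldh3a1, an aldehyde dehydrogenase of the classical AhR gene battery, was listed at 0 in WT, where 3 reads would be 0.209 FPKM, and was 1.62 FPKM in ESAM-null on about 25 reads. Hes1, a transcriptional repressor best known as a Notch target, was 3.07 and 13.2 FPKM, 4.32-fold higher in ESAM-null (2.98 to 6.27), with a rank of 98.8%. In the opposite direction, Ptgs2, the inducible cyclooxygenase, was 1.48 FPKM in WT against 0.0247 FPKM in ESAM-null, on about 59 reads and 1 read, 59.8-fold lower with an interval of 11.1 to 2578 and a rank of 31.2%. The most abundant further targets were Selenbp1, at 54.9 and 78.2 FPKM, and Abcg2, the efflux transporter that defines the stem cell side population, at 17.7 and 32.9 FPKM, both under 2-fold higher. The other battery genes Cyp1a2, Ugt1a6a, Ugt1a6b, Gsta1 and Gsta2 were listed at 0 in both libraries, as were Cyp2s1, Scin, Ereg, Il22 and Fgf21. Aldh3a1 passed the filter only through ESAM-null and Ptgs2 only through WT, which fixed their directions. Of genes past the filter with a mean under 1 FPKM, as Ptgs2 had, 57.2% were at least 2-fold lower and 31.6% at least 2-fold higher.

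Enzymes of tryptophan breakdown make or remove natural AhR ligands. Of 12 listed, 6 were measured, with 2 lower (33.3%) and none higher, against 12.8% and 7.42% of all genes. Kmo, which removes the ligand kynurenine by hydroxylation, had 2.82 FPKM, or about 66 reads, in WT but was listed at 0 for ESAM-null, where 3 reads would be 0.118 FPKM. Afmid, the formamidase that yields kynurenine, was 2.49 and 0.826 FPKM, 3.02-fold lower (1.61 to 5.79), with a rank of 20.2%. Haao was 19.3 FPKM in WT against 10.1 FPKM in ESAM-null, 1.92-fold lower, and Ccbl1, which encodes a kynurenine aminotransferase, was 11.9 and 10.3 FPKM. Of the enzymes that start the pathway, Ido1 and Ido2 were listed at 0 in both libraries, as were Il4i1 and Tph1, and Tdo2 was listed at 0 in WT and at 0.068 FPKM, about 2 reads, in ESAM-null. Transcripts typical of macrophages differed in both directions. Of 7 markers with a value, 3 were listed at 0 in ESAM-null, as Kmo was: C1qa, at 2.91 FPKM in WT, Vcam1, at 0.797 FPKM, and Emr1, at 0.698 FPKM. C1qb was 3.85 and 1.94 FPKM, while C1qc was 3.38 and 5.07 FPKM, Cd68 was 14.2 and 19.98 FPKM and Csf1r was 2.17 and 3.59 FPKM. The sum of the 7 was 28.0 FPKM in WT against 30.6 FPKM in ESAM-null. Most of each sum was Cd68, and the higher sum in ESAM-null rested on it. The part of macrophages in the Kmo value was not tested.

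Nqo1 is also a target of NRF2, encoded by Nfe2l2. Of 11 genes of that axis 1 was lower and 1 was higher (9.09% each, against 12.8% and 7.42% of all genes). Hmox1, the inducible heme oxygenase, was 5.81 FPKM in WT against 13.2 FPKM in ESAM-null, 2.27-fold higher (1.71 to 2.99) with a rank of 94.2%, and was within 2-fold after upper quartile scaling and with totals of 1000000 FPKM. Nfe2l2 was 23.2 and 39.2 FPKM, 1.69-fold higher, and Keap1, the adaptor that targets NRF2 for degradation, was 31.3 and 18.9 FPKM, 1.66-fold lower. Gclm, the regulatory subunit of glutathione synthesis, was 30.3 and 51.0 FPKM, and Txnrd1, a thioredoxin reductase, was 70.5 and 75.3 FPKM. Gclc was 14.9 and 8.54 FPKM, 1.75-fold lower. By any amount, 7 of the 11 genes were higher in ESAM-null and 4 were lower. Nqo2, the closest relative of Nqo1, differed in the opposite direction, with 8.07 FPKM in WT against 3.29 FPKM in ESAM-null, or 2.45-fold lower (1.79 to 3.41), with a rank of 9.83%. With totals of 1000000 FPKM, 3 genes of the axis were lower, Keap1, Gclc and Nqo2, and 0 were higher. The median log2 ratio of the 11 was 0.10 as deposited and -0.18 with totals of 1000000 FPKM. The part of NRF2 in the Nqo1 value was not tested.

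Tiparp belongs to the PARP family. Of 12 relatives, 2 were lower (16.7%) and 1 was higher (8.33%), against 12.8% and 7.42% of all genes. Parp11 was 4.37 FPKM in WT against 0.831 FPKM in ESAM-null, or 5.26-fold lower (3.56 to 8.13), with a rank of 12.1%. Parp14, which is induced by interferon, was 3.16 and 1.41 FPKM, 2.24-fold lower (1.76 to 2.86), with a rank of 26.5%. Parp4 was 1.22 and 2.44 FPKM with a rank of 80.3%, just past 2-fold higher as deposited and within 2-fold under the 3 other scalings. The DNA repair enzymes Parp1 and Parp2 were the most abundant, with Parp1 at 75.6 and 59.1 FPKM and Parp2 at 53.9 and 75.2 FPKM.

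**Figure D3:**
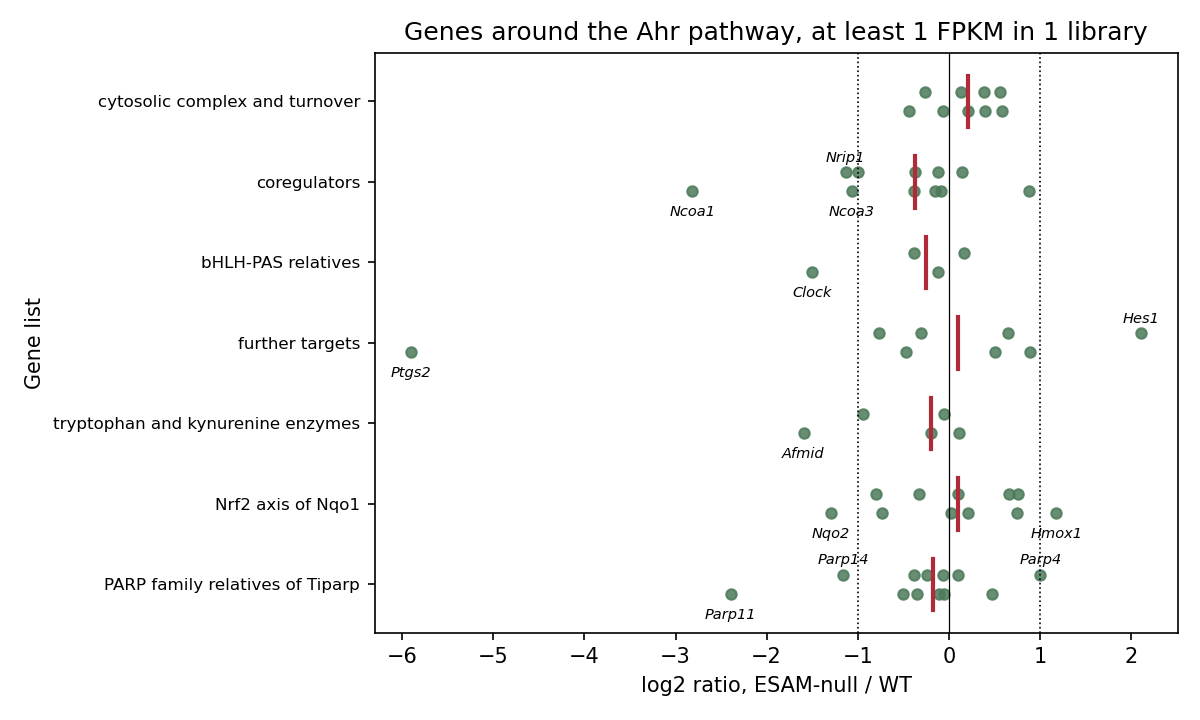
ESAM-null to WT log2 ratios of FPKM in the 7 lists around the AhR pathway for genes with at least 1 FPKM in 1 library and above 0 in both. Each point is a gene, red bars are list medians, dotted lines mark 2-fold, and genes past 2-fold are named. As deposited, the medians run from -0.38 for the coregulators to 0.21 for the cytosolic complex. With totals of 1000000 FPKM these medians are -0.66 and -0.07. Kmo and Aldh3a1, listed at 0 in 1 library, are left out.

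The genes whose 2 values lay nearest to those of Ahr, by the Euclidean distance of log2(FPKM + 0.1), were Tmem14a (6.21 FPKM in WT against 2.37 FPKM in ESAM-null), A930015D03Rik (6.10 and 2.31 FPKM) and Dcaf10 (6.43 and 2.41 FPKM), at distances of 0.0654, 0.0690 and 0.0716. Over 2 libraries such likeness means only that the levels were similar.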

How the data were processed

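RNA-seq of E14.5 FL LSK CD48- cells comprised 1 WT and 1 ESAM-null library. A low-input cDNA kit was used, and reads were single-end of 75 bp. FPKM per gene symbol were computed by the authors and deposited for 23284 symbols. Per the submitters' processing notes, the build was mm10 and the tools were Cuffnorm (2.2.1), TopHat2 (2.0.13), SAMtools (0.1.19) and Bowtie2 (2.2.3). Not given in the sources used here are the gene annotation, the library normalization setting and how reads that map to several places were handled.

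Plain ratios of ESAM-null to WT FPKM were computed, and genes with at least 1 FPKM in 1 library were counted past 2-fold. Medians use genes above 0 in both libraries. Approximate reads were FPKM times effective transcript length times the value of 1 read. Lengths were means over RefSeq-paired transcripts of GENCODE M21, available for 98.0% of symbols, with an assumed fragment length of 200 bp and SD of 80 bp. Low genes with 1 transcript fell within 0.05 of a whole read in 66.0% (WT) and 72.6% (ESAM-null) of cases. Intervals are exact at 95% (Clopper-Pearson for ratios, Poisson for levels). Gene coordinates are those of GENCODE M21 (GRCm38, the same build as mm10). The counting steps were tested on data simulated with counting error only, which cannot test how far libraries vary.

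The 7 genes, the lists and the markers were chosen with earlier results of these data known. Named were the 7 genes, Esam, the 3 genes nearest to Ahr, and from each list the 2 genes of highest mean FPKM and up to 3 past 2-fold in each direction. Genes listed at 0 in both libraries were named as such. Ncoa2, Nfe2l2, Keap1, Gclc and Tdo2 were named after their values were seen. Alternatives were other scalings, pseudocounts, filters, thresholds and transcript lengths. Calculations were run in Python 3.11.15 with scipy 1.17.1, pandas 2.3.3 and numpy 2.4.6, and plots were drawn with matplotlib 3.10.9.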

Additional observations from a re-analysis of the deposited data

How the results depend on the processing

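No paired analysis was possible because each genotype has 1 library. The alternatives run left the directions of Ahr, Arnt, Tiparp and Nqo1 as reported. Adding 1 FPKM to the values brought Ahr to a log2 ratio of -1.17. After setting both totals to 1000000 FPKM, Arnt was -0.88 and Tiparp -0.37, and Tiparp was -0.28 after upper quartile scaling, and both Tiparp intervals then excluded equal levels. At 1.5-fold, 2 of the 4 detected genes were lower, Ahr and Arnt, against 21.8% of all genes. At 3-fold as deposited 0 were lower, against 7.27%, and Nqo1 was still higher. The log2 ratio of Ahr was -1.68 after upper quartile scaling and -1.76 with totals of 1000000 FPKM, both past 3-fold. That of Nqo1 was 1.46 and 1.37 under these scalings, both within 3-fold. With at least 5 FPKM required in 1 library, Nqo1 dropped out and 0 were higher. Of the genes past 2-fold around the pathway, 85.7% were lower after upper quartile scaling. Of the genes tested there, 6 of 62 were lower with 1 FPKM added, 3 of 50 with at least 5 FPKM required and 4 of 55 with 1 FPKM required in both libraries. At 3-fold 5 of 62 were lower, without a filter 13 of 71 and at 1.5-fold 15 of 62. The higher genes numbered 2 after upper quartile scaling, rescaling, a 5 FPKM filter or a 3-fold threshold. They numbered 7 of 71 without a filter and 11 of 62 at 1.5-fold. Over all genes, 2398 were lower after rescaling, and 74.7% of genes past 2-fold were lower after upper quartile scaling. Without a filter 3264 were lower and 1343 higher, with 5 FPKM required 639 and 343, with 1 FPKM in both libraries 761 and 437, at 1.5-fold 2632 and 2095, at 3-fold 877 and 490, and 568 were higher with 1 FPKM added. Other transcript lengths, or no fragment length correction, left the interval bounds of the 4 detected genes on the same side of no difference and of 2-fold. The low read number of Nqo1 in WT limits its fold, and the zeros of Ahrr, Cyp1a1 and Cyp1b1 limit any comparison.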
